A study of Homo sapiens with 4 samples.

Results

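Collagen genes and the genes of the enzymes and chaperone that process collagen were examined with and without targeting of TTC28 in H1299, a cell line from a human lung carcinoma. The members were all protein-coding genes of the expression table named as a collagen chain (COL, a number, A, a number), together with LOX and LOXL1 to LOXL4, PLOD1 to PLOD3, P4HA1 to P4HA3 and SERPINH1. They came to 56 of 58735 genes, 44 collagen chains and 12 enzymes or chaperone. RNA sequencing was done on 4 libraries of untreated cultured H1299 cells, 2 wild type and 2 of cells in which TTC28, a gene for a large protein with tetratricopeptide repeats, had been targeted with CRISPR/Cas9. Whether the knockout cells were 1 clone or a pool, and whether replicates were separate cultures, is not stated in the labels, so p-values measure only the spread between these libraries. The number of libraries cannot give a permutation p for a single gene under 0.333.

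Collagens are secreted proteins of the extracellular matrix whose chains wind around each other into a long helix built on short repeats that start with glycine. In the endoplasmic reticulum, prolyl 4-hydroxylases modify prolines so that the helix is stable, lysyl hydroxylases modify lysines for sugar attachment and cross-linking, and the chaperone HSP47, encoded by SERPINH1, binds the folded helix. Outside the cell, lysyl oxidases oxidise lysines so that the chains become covalently cross-linked. Fibrillar collagens form fibrils, collagen IV forms the sheet-like network of basement membranes, and collagen VI forms beaded filaments. Epithelial cells and carcinomas derived from them typically contribute basement membrane, whereas fibroblasts make most fibrillar collagen.

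The libraries held between 25120500 and 28885443 counts. Levels are given as FPKM, the fragments per kilobase of a gene after scaling for library depth. The targeted gene TTC28 had 4.88 and 5.44 FPKM in the wild-type libraries against 2.96 and 2.99 FPKM in the knockout libraries, or 0.577 of wild type (edgeR's quasi-likelihood test, Benjamini-Hochberg adjusted p = 2.78e-06). Its transcript was therefore lower but still present, and the count covers the gene as a whole rather than the edited site. VIM was at 300 to 366 FPKM and KRT18 at 138 to 170 FPKM in the 4 libraries, while the epithelial markers EPCAM, KRT19 and CDH1 were under 1 FPKM in every library. Of 8 fibroblast markers 7 were under 1 FPKM in every library, and the list summed to 1.53 and 1.36 FPKM in wild type and 1.61 and 1.54 FPKM in the knockout. The 4 leukocyte markers were under 0.1 FPKM, and 3 endothelial markers summed to 0.0993 and 0.0835 FPKM in wild type and 0.284 and 0.286 FPKM in the knockout. Markers that were higher in the knockout were KRT8 (log2 fold change 0.74, edgeR adjusted p = 1.31e-06), CDH2 (0.31, edgeR adjusted p = 0.00322), KRT18 (0.23, edgeR adjusted p = 0.00990) and VIM (0.23, edgeR adjusted p = 0.0170). ZEB1 (0.01, edgeR adjusted p = 0.932) and ACTA2 (0.02, edgeR adjusted p = 0.951) did not pass. With the median of neighbouring tested genes removed, KRT18 was at -0.12 (edgeR adjusted p = 0.142), KRT8 at 0.40, CDH2 at 0.27 and VIM at 0.26. At a minimum of 0.1 FPKM, 2 receptor genes were also higher, with counts in the order of wild-type and then knockout replicates. They were the endothelial KDR (1, 6, 38 and 31 counts, edgeR adjusted p = 0.000395) and the fibroblast PDGFRA (10, 10, 44 and 36 counts, edgeR adjusted p = 0.000882). KDR and PDGFRA met that minimum through the knockout libraries alone, so that they had to be higher there to be counted. Of the same lists, PDGFRB had 9, 14, 8 and 16 counts, DCN had 5, 11, 2 and 3, and PECAM1 had 19, 8, 14 and 15. FAP, POSTN, LUM, THY1 and CDH5 had at most 6 counts in any library. The part of these markers in the results on collagen IV and its partners was not tested. In bulk RNA fewer cells of a type and less RNA per cell cannot be told apart.

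The test was run on genes that reached 1 FPKM in 2 or more libraries, which 16 of the 56 members did, 6 chains and 10 modifying genes. In edgeR's quasi-likelihood test at an adjusted p under 0.05, 5 of the 16 rose in the knockout, 8 fell and 3 did not pass, against a background in which 50.3% of all 13079 tested genes changed, 25.1% higher and 25.2% lower. The 5 that rose were the collagen IV chain COL4A5, the lysyl oxidase LOXL2, the lysyl hydroxylase PLOD2, the prolyl 4-hydroxylase subunit P4HA1 and the chaperone SERPINH1. The 8 that fell were the chains COL6A1, COL6A2, COL13A1 and COL27A1, the lysyl oxidases LOX, LOXL1 and LOXL3, and the lysyl hydroxylase PLOD3. COL18A1, PLOD1 and P4HA2 did not pass. The median log2 fold change was -0.50 over the 6 chains, 0.16 over the 10 modifying genes and -0.12 over all 16, beside -7.07e-05 over all tested genes. Wild-type and knockout libraries did not overlap for 15 of the 16, which is to be read against 75.5% of all tested genes. COL4A5 met the filter through the knockout libraries alone, and COL27A1 and LOX through the wild-type libraries alone, so that the counts over these 16 are not counts over all members.

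**Figure D1:**
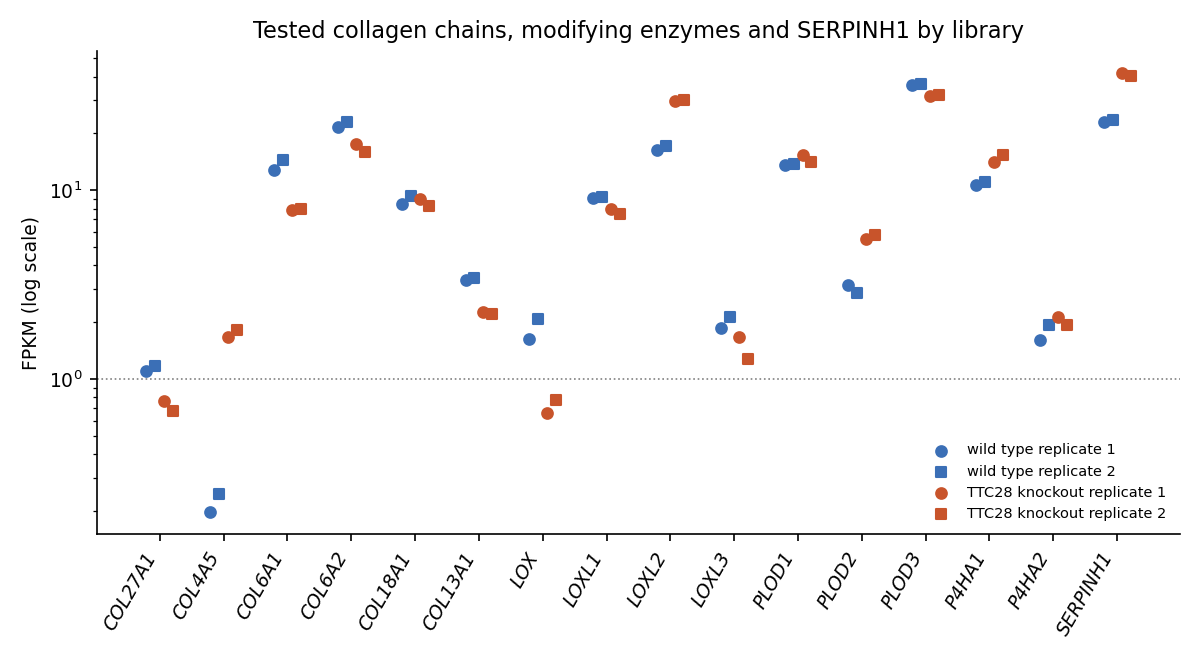
Levels of the 16 tested members in FPKM on a log axis, 1 point per library, with wild type in blue, the knockout in orange and a dotted line at the filter of 1 FPKM. PLOD3, SERPINH1, LOXL2 and COL6A2 were the most abundant, and COL4A5 had the widest gap between the groups, from 0.196 and 0.244 to 1.67 and 1.81 FPKM.

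**Figure D2:**
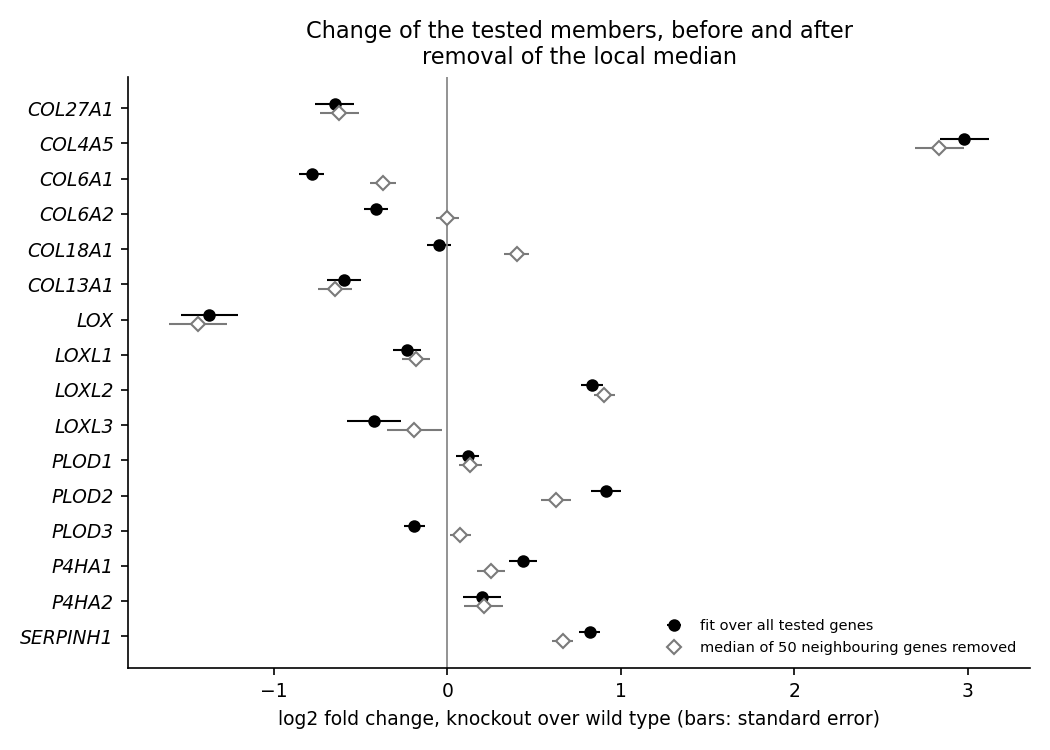
Log2 fold change, knockout over wild type, of the 16 tested members, with bars of 1 standard error, as fitted and after removal of the median of up to 25 neighbouring tested genes on each side. COL4A5 stood at 2.98 and LOX at -1.37, and COL18A1 moved from -0.05 to 0.40 and COL6A2 to near 0 when the local median was removed.

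The collagen IV genes COL4A5 and COL4A4 rose in the knockout, by 7.88-fold and 9.37-fold. Their chains assemble in trimers, and those encoded by COL4A3, COL4A4 and COL4A5 form the mature network of the glomerular and alveolar basement membrane. The 6 collagen IV genes lie in pairs that are transcribed away from each other from a shared promoter region. In the GENCODE 29 annotation, 111 bases separate COL4A4 from COL4A3 on chromosome 2, 346 bases separate COL4A6 from COL4A5 on chromosome X, and the annotated ends of COL4A1 and COL4A2 on chromosome 13 overlap. Parts of these windows that lie outside annotated exons are printed here because the genes on both sides of each gap had higher counts in both knockout libraries than in either wild-type library. They come from RefSeq promoter windows (250 bases before to 50 after a start site, build GRCh38.p14) and are written 5′ to 3′ on the strand of the named gene. Capitals mark every match, on either strand, to the motifs searched: the hypoxia response core (ACGTG or GCGTG), a heat shock element (GAANNTTC or TTCNNGAA), the CCAAT box, TATAAA and the GC box GGGCGG. The first is the whole interval between COL4A4 and COL4A3 (chr2:227164454-227164564, plus strand, 111 bases), and the second is the stretch before the start of COL4A5 (chrX:108439588-108439837, plus strand, 250 bases).
COL4A3: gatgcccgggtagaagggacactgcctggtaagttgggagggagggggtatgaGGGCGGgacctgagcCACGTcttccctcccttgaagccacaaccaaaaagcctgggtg
COL4A5: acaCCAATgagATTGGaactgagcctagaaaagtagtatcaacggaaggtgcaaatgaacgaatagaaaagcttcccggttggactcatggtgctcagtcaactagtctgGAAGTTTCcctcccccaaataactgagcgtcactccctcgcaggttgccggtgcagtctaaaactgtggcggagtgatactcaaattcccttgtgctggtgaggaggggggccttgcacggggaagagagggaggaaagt
The interval between COL4A4 and COL4A3 held 1 hypoxia response core and 1 GC box, and the stretch before COL4A5 held 2 CCAAT boxes and 1 heat shock element. A match describes letters in these windows, not a bound site.

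COL4A5 (ENSG00000188153, hg38 chromosome X, 108439844 to 108697545) had 0.196 and 0.244 FPKM in the wild-type libraries and 1.67 and 1.81 FPKM in the knockout libraries. In counts, replicates 1 and 2 of wild type and then of the knockout had 61, 79, 551 and 525, the order used throughout. Both knockout libraries were far above both wild-type libraries. COL4A5 was 7.88-fold higher in the knockout (log2 fold change 2.98 ± 0.142 SE, edgeR's quasi-likelihood test, Benjamini-Hochberg adjusted p = 5.83e-09). With the median of its 25 neighbouring tested genes on each side removed, which was 0.14, the log2 fold change was 2.84 (adjusted p = 1.06e-08 in the same test).

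The other collagen IV genes were under 1 FPKM in every library. COL4A4, the chain that joins COL4A5 and COL4A3 in 1 trimer, had 5 and 11 counts in wild type and 86 and 64 in the knockout. Its libraries did not overlap, and the ratio of summed counts, scaled by library size, was 9.60 (95% exact Clopper-Pearson interval 5.72 to 17.2, counting error only). Among the 21208 genes that reached 0.1 FPKM in 2 or more libraries, 35.0% changed (16.9% higher, 18.1% lower). In that fit COL4A4 had a log2 fold change of 3.23 ± 0.361 (edgeR's quasi-likelihood test, Benjamini-Hochberg adjusted p = 1.54e-05). It met the minimum through the knockout libraries alone, so that it had to be higher there to be counted. With a library left out its log2 fold change was between 2.80 and 3.86, the highest without wild-type replicate 2.
COL4A3, transcribed the other way from the same interval, had 5, 9, 25 and 11 counts, a ratio of 2.63 (1.39 to 5.28). COL4A6, the neighbour of COL4A5, had 6, 11, 38 and 20 counts, a ratio of 3.49 (2.01 to 6.40). COL4A1, 1 of the chains of the most widespread trimer, had 5, 3, 10 and 23 counts, a ratio of 4.22 (1.91 to 10.6). COL4A2, its usual partner, had 1, 0, 2 and 0 counts and gives no usable ratio. The chains of the widespread trimer were thus close to the detection limit in both groups, and COL4A5 was the most abundant collagen IV transcript in every library. Summed over the 6 genes, collagen IV was at 0.276 and 0.372 FPKM in wild type and 2.25 and 2.27 FPKM in the knockout, or 0.536% and 0.669% against 4.93% and 5.41% of all collagen chain FPKM.

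**Figure D3:**
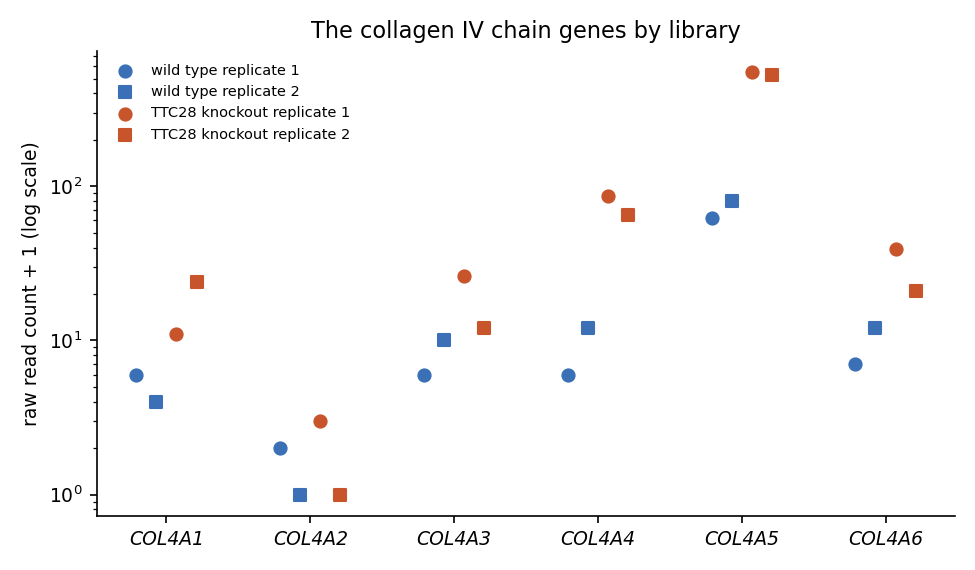
Raw read count plus 1, on a log axis, of the 6 collagen IV genes in each library, with wild type in blue, the knockout in orange, circles for replicate 1 and squares for replicate 2. COL4A5 had the highest count in all 4 libraries, and COL4A4 went from 5 and 11 counts in wild type to 86 and 64 in the knockout.

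The most abundant collagen transcripts were those of 3 genes at the end of chromosome 21, the collagen VI chains COL6A1 and COL6A2 and the multiplexin COL18A1. Together they made up 83.7% and 84.2% of the summed collagen chain FPKM in wild type and 75.7% and 76.5% in the knockout. Summed over all 44 chains, wild type had 53.5 ± 2.92 FPKM (SD, n = 2), and the knockout had 43.8 ± 2.51 FPKM (SD, n = 2). COL6A1 and COL6A2 lie 93046 bases apart and are transcribed in the same direction, and COL18A1 lies 468016 bases before COL6A1.

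COL6A1 (ENSG00000142156, chromosome 21, 45981737 to 46005050), a chain of the beaded filaments that link cells to the matrix, was at 12.9 and 14.4 FPKM in wild type and at 7.86 and 7.95 FPKM in the knockout. The knockout libraries were both below the wild-type ones, at 0.581 of wild type (log2 fold change -0.78 ± 0.0746, edgeR's quasi-likelihood test, Benjamini-Hochberg adjusted p = 2.53e-06). COL6A2 (ENSG00000142173, chromosome 21, 46098097 to 46132849), its partner chain, was at 21.7 and 23.0 FPKM in wild type and at 17.6 and 15.9 FPKM in the knockout. COL6A2 also fell without overlap, by 0.41 on the log2 scale (SE 0.067, edgeR adjusted p = 0.000218). COL18A1 (ENSG00000182871, chromosome 21, 45405137 to 45513720), a basement membrane collagen whose end fragment is endostatin, was at 8.47 and 9.36 FPKM in wild type and at 8.97 and 8.25 FPKM in the knockout. Its libraries overlapped and its log2 fold change of -0.05 ± 0.071 did not pass (edgeR adjusted p = 0.607).

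Neighbouring genes moved with these values. The median log2 fold change of up to 25 tested genes on each side was -0.41 around COL6A1, -0.41 around COL6A2 and -0.45 around COL18A1. Towards the chromosome end the neighbours are as many as the chromosome still holds. The 3 genes lie close together, so that their medians rest in part on the same neighbours. With that median removed, COL6A1 was at -0.37 (edgeR's quasi-likelihood test, Benjamini-Hochberg adjusted p = 0.00121), COL6A2 was at -0.00079 (adjusted p = 0.993) and COL18A1 was at 0.40 (adjusted p = 0.000502). COL6A1 alone of the 3 was therefore lower than its surroundings, and COL18A1 was higher than its own. COL18A1 shares 16.4% of its exonic bases with SLC19A1 on the opposite strand, which had 976, 1048, 686 and 602 counts, and since no source used here gives the strand setting of the counting, the shared reads cannot be assigned. COL6A3, the chain that completes the usual collagen VI trimer, had 0, 3, 0 and 0 counts, COL6A6 had 2, 2, 9 and 2, and COL6A5 had 0 in every library, which allows up to 3 counts per library.

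A transmembrane and a fibrillar collagen also fell. COL13A1 (chromosome 10, 69801867 to 69964275), a transmembrane collagen of cell adhesion sites, was at 3.33 and 3.42 FPKM in wild type and 2.26 and 2.20 FPKM in the knockout. Its groups did not overlap, and its log2 fold change was -0.60 ± 0.0982 (edgeR adjusted p = 0.000237), or -0.65 with the local median removed. COL27A1 (chromosome 9, 114155560 to 114312511), a fibrillar chain known from cartilage, was at 1.10 and 1.17 FPKM in wild type and 0.767 and 0.679 FPKM in the knockout. Its groups did not overlap either, and its log2 fold change was -0.65 ± 0.113 (edgeR adjusted p = 0.00036). COL27A1 did not pass in limma on log2 FPKM, at an adjusted p of 0.056 with a pseudocount of 0.5 and 0.063 with a pseudocount of 0.1.

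The chains of the major fibrils were under 1 FPKM in every library, and several of them had only a few counts. Collagen I is made of chains from COL1A1 and COL1A2, and collagen III and V join it in fibrils. COL1A1 had 32 and 60 counts in wild type and 116 and 108 in the knockout, which is 0.124, 0.224, 0.424 and 0.450 FPKM. COL1A2 had 2, 0, 0 and 1 counts, COL3A1 had 1, 2, 0 and 0, and COL5A1 had 4, 5, 2 and 2. Thus only 1 of the 2 collagen I chains had more than 2 counts in any library. Of the other collagen V chains, COL5A2 had 43, 51, 70 and 50 counts and COL5A3 had 1, 3, 0 and 0. COL1A1 rose in the test of genes with at least 0.1 FPKM (1.31 ± 0.251, edgeR adjusted p = 0.00112), but not in limma with either pseudocount (adjusted p = 0.0663 and 0.0793).

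Of the 40 members that were not tested at 1 FPKM, 12 had at least 0.1 FPKM in 2 or more libraries, and among these 5 rose, 2 fell and 5 did not pass in edgeR's quasi-likelihood test. Of all 8129 genes between these limits 14.8% were called, 7.32% higher and 7.47% lower. COL4A4 and COL26A1 met the lower limit through the knockout libraries alone. Besides COL4A4 and COL1A1, the 3 that rose were COL7A1, COL9A3 and COL26A1, and the 2 that fell were COL12A1 and LOXL4. COL7A1, which forms the anchoring fibrils under stratified epithelia, was at 0.441, 0.398, 0.872 and 0.780 FPKM, and its log2 fold change was 0.97 ± 0.145 (edgeR adjusted p = 0.000167). Both of its knockout libraries were above both wild-type ones. COL9A3, a chain that decorates cartilage fibrils, was at 0.473, 0.379, 1.49 and 0.854 FPKM, with the 2 knockout libraries far apart, and had a log2 fold change of 1.46 ± 0.260 (edgeR adjusted p = 0.000638). It did not pass in limma with either pseudocount (adjusted p = 0.0603 and 0.0549). COL12A1, a chain found on the surface of fibrils, had 174 and 235 counts in wild type and 154 and 118 in the knockout. Its log2 fold change was -0.57 ± 0.163 (edgeR adjusted p = 0.0153). It did not pass in 5 of 13 alternatives, among them the fits without wild-type replicate 2 or knockout replicate 2 and DESeq2 (adjusted p = 0.0505). COL26A1 had 6, 5, 26 and 11 counts (1.73 ± 0.571, edgeR adjusted p = 0.0304). Without knockout replicate 1 its log2 fold change was 1.10. It did not pass in 6 of 13 alternatives, among them that fit, the fits without either wild-type library and DESeq2 (adjusted p = 0.120). COL5A2, COL11A2, COL16A1, COL17A1 and P4HA3 did not pass, at log2 fold changes between -0.67 and 0.51.

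The remaining 28 members were all collagen chains, none above 0.147 FPKM in any library, and 21 of them had under 20 counts summed over the 4 libraries. Beyond the collagen IV chains, COL8A2, a network chain of the cornea, had 1, 6, 18 and 11 counts, and COL25A1, a transmembrane chain, had 4, 10, 16 and 13. COL24A1, a minor fibrillar chain, had 9, 8, 3 and 0 counts, and COL21A1 had 3, 15, 1 and 1. COL22A1, like COL6A5, had no count in any library. Of the 40 members that missed the filter of 1 FPKM, 19 had at least 20 counts in all, and the counting interval of their ratio lay above 1 for 11, below 1 for 5 and around 1 for 3. Of all 6004 genes that missed the filter and had as many counts, 21.2% had an interval above 1 and 19.4% below 1. These intervals cover counting error only and hold no spread between libraries.

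**Figure D4:**
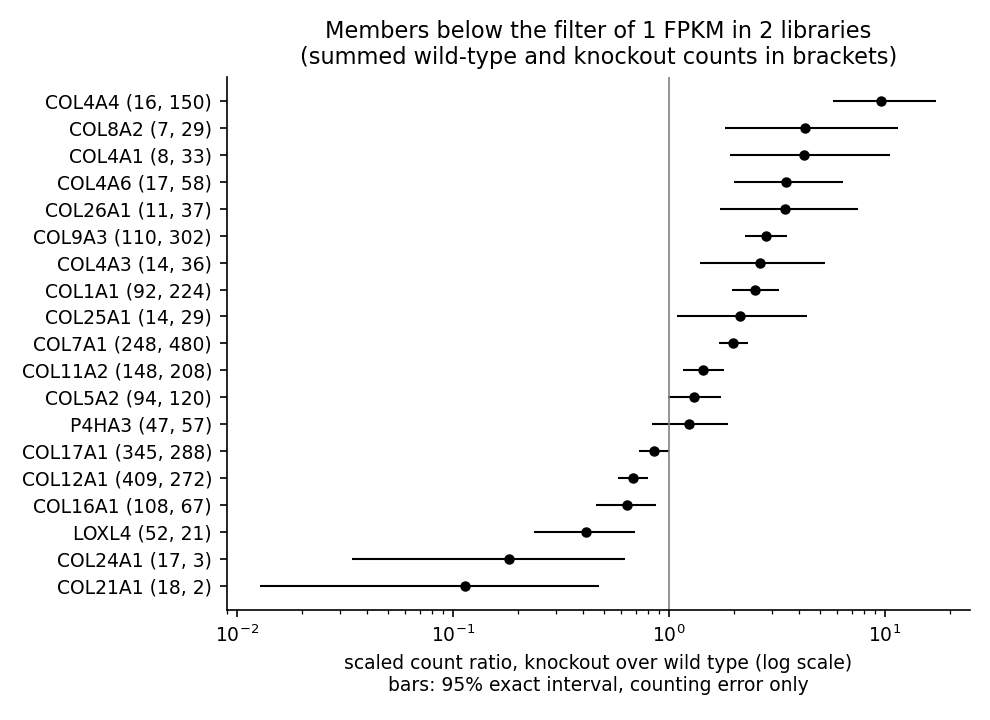
Ratio of summed counts, knockout over wild type after scaling by library size, on a log axis for the 19 members that missed the filter of 1 FPKM in 2 libraries and had at least 20 counts in all, with 95% exact Clopper-Pearson intervals that cover counting error only. Summed wild-type and knockout counts stand in brackets, and COL4A4 had the highest ratio, 9.60, and COL21A1 the lowest, 0.114.

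The lysyl oxidases moved in opposite directions. LOX (chromosome 5, 122063195 to 122078360), the founding member of the family that oxidises lysines of collagen and elastin, was at 1.63 and 2.08 FPKM in wild type and 0.660 and 0.775 FPKM in the knockout. Both knockout libraries were below both wild-type ones. LOX was 2.59-fold lower (log2 fold change -1.37 ± 0.166, edgeR's quasi-likelihood test, Benjamini-Hochberg adjusted p = 1.90e-05), and at -1.44 with the local median removed.

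LOXL2 is a secreted relative known for cross-linking collagen IV. It was at 16.4 and 17.2 FPKM in wild type and 29.8 and 29.9 FPKM in the knockout. The replicates of each group were close together and the groups did not overlap. LOXL2 was 1.78-fold higher (0.83 ± 0.0611, edgeR adjusted p = 2.73e-07), and at 0.90 with the local median removed. LOXL2 was thus the most abundant lysyl oxidase transcript in every library, and it rose while LOX fell.

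LOXL1, which is needed for elastic fibres, was at 9.12 and 9.17 FPKM in wild type and 8.0006 and 7.51 FPKM in the knockout (-0.23 ± 0.0815, edgeR adjusted p = 0.0289). LOXL3, another secreted relative, was at 1.86 and 2.12 FPKM in wild type and 1.68 and 1.28 FPKM in the knockout (-0.42 ± 0.156, edgeR adjusted p = 0.0370). The groups did not overlap for either gene. With a library left out, LOXL1 stayed between -0.28 and -0.20 and LOXL3 between -0.63 and -0.25, but most of these fits did not pass. LOXL1 did not pass without wild-type replicate 1 (edgeR adjusted p = 0.115), wild-type replicate 2 (0.112) or knockout replicate 2 (0.0849), nor in DESeq2 (0.0812) or with the local median removed (-0.18, adjusted p = 0.0828). LOXL3 did not pass in 7 of 14 alternatives. Among them were the fits without the same libraries, DESeq2 (adjusted p = 0.1002) and edgeR with the local median removed (-0.19, adjusted p = 0.343). LOXL3 shares 14.3% of its exonic bases with HTRA2 and 4.95% with DOK1, and LOXL1 shares 9.21% with LOXL1-AS1, all on the opposite strand. Among other members, PLOD3 shares 7.56% with ZNHIT1 (3185, 3145, 3204 and 2566 counts), also on the opposite strand. P4HA3 shares 4.14% with PPME1 (1277, 1355, 1400 and 1200 counts) and LOX 2.49% with SRFBP1 (382, 468, 332 and 290 counts) in the same way. Reads in these shared bases cannot be assigned either. LOXL4 had 29 and 23 counts in wild type and 12 and 9 in the knockout, a ratio of 0.413 (0.237 to 0.698). It fell in the test at 0.1 FPKM (-1.28 ± 0.419, edgeR adjusted p = 0.0294) but did not pass in 6 of 13 alternatives. Among them were the fits without wild-type replicate 1 or either knockout library and DESeq2 (adjusted p = 0.140).

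Among the lysyl hydroxylases PLOD2 rose. PLOD2 (ENSG00000152952, chromosome 3, 146069440 to 146163653), which hydroxylates lysines in the end peptides of collagen chains, was at 3.16 and 2.87 FPKM in wild type and 5.53 and 5.79 FPKM in the knockout. The groups did not overlap, and PLOD2 was 1.88-fold higher (0.91 ± 0.0866, edgeR adjusted p = 2.45e-06), or at 0.63 with the local median removed (edgeR adjusted p = 7.11e-05).
PLOD3 (chromosome 7, 101205977 to 101218420), which also transfers sugars to hydroxylysine, was the most abundant of the enzymes, at 36.0 and 36.6 FPKM in wild type and 31.5 and 32.0 FPKM in the knockout. Its fall of 0.19 on the log2 scale was small (SE 0.0595, edgeR adjusted p = 0.0171), and it did not pass without wild-type replicate 1 (0.0769) or wild-type replicate 2 (0.102). The genes around PLOD3 had a median of -0.26, and with that removed it was at 0.08 (edgeR adjusted p = 0.322). PLOD1 (chromosome 1, 11934205 to 11975538), which acts on the helical part of the chains, was at 13.7 and 13.7 FPKM in wild type and 15.4 and 14.2 FPKM in the knockout, and did not pass (0.12 ± 0.0659, edgeR adjusted p = 0.157, and -0.05 when libraries were scaled to equal sums of count per gene length).

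Among the catalytic subunits of prolyl 4-hydroxylase P4HA1 rose. P4HA1 (chromosome 10, 73007217 to 73096974), the widely expressed subunit, was at 10.7 and 11.0 FPKM in wild type and 14.1 and 15.3 FPKM in the knockout. It was 1.36-fold higher without overlap (0.44 ± 0.0809, edgeR adjusted p = 0.000568), and at 0.25 with the local median removed (edgeR adjusted p = 0.0204). P4HA2 was at 1.61 and 1.93 FPKM in wild type and 2.12 and 1.93 FPKM in the knockout, with neighbouring values, and did not pass (0.20 ± 0.112, edgeR adjusted p = 0.155). P4HA3 had 24, 23, 39 and 18 counts and did not pass.

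The chaperone gene SERPINH1 (ENSG00000149257, chromosome 11, 75562056 to 75572783) was at 23.1 and 23.5 FPKM in wild type and 42.0 and 40.1 FPKM in the knockout. Its groups were far apart relative to the spread within each, and it was 1.77-fold higher (0.82 ± 0.0604, edgeR adjusted p = 2.90e-07), or at 0.67 with the local median removed.

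PLOD2, P4HA1 and LOX are textbook targets of hypoxia-inducible factors, and SERPINH1 is a textbook heat shock gene, and the start regions of PLOD2, which rose, and LOX, which fell, are shown as 2 examples. The PLOD2 stretch is chr3:146161185-146161434 (minus strand, 250 bases) and the LOX stretch is chr5:122078361-122078509 (minus strand, 149 bases), both RefSeq windows on GRCh38.p14 outside annotated exons, 5′ to 3′ on the strand of the gene, with capitals as above.
PLOD2: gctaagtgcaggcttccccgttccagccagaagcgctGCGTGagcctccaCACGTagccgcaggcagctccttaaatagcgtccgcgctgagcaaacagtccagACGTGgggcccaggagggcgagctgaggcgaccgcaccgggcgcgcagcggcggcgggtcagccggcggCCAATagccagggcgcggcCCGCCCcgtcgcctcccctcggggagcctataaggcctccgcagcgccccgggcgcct
LOX: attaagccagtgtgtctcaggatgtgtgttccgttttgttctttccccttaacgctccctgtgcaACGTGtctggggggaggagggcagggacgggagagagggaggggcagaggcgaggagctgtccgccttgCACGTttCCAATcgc
The PLOD2 stretch held 3 hypoxia response cores, 1 CCAAT box and 1 GC box, and the LOX stretch held 2 hypoxia response cores and 1 CCAAT box. RefSeq windows were found for 42 of the 56 members, 58 windows in all. A hypoxia response core was in 28 of the 58 (48.3%), beside 48.4% of all 35116 windows of the same length, and a heat shock element in 7 (12.1%), beside 13.5%. A CCAAT box was in 18 (31.0%), beside 34.6%, TATAAA in 9 (15.5%), beside 11.5%, and the GC box in 31 (53.4%), beside 45.0%.

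As a set, though not in every gene, the collagen chains have an exon structure that the choice by name did not use. In the longest coding transcript of each gene in GENCODE 29, 474 of 2004 coding exons of the 44 chain genes were exactly 54 bases long (23.7%) and 1242 (62.0%) were a multiple of 9 bases, the length that encodes 1 glycine repeat of the helix. For the 12 modifying genes these shares were 1.27% and 10.8%, and for all other protein-coding genes 0.422% and 13.8%. The share differed among chains: 33 of 61 coding exons of COL27A1 and 21 of 51 of COL1A1 were 54 bases long, against 3 of 53 of COL4A5, 3 of 35 of COL6A1 and 4 of 40 of COL13A1.

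Genes that act around collagen were described from lists by role, to be read against the 25.1% of all tested genes that rose and the 25.2% that fell. Of 15 genes of folding and glycosylation, 4 rose, 1 fell and 10 did not pass, with a median log2 fold change of 0.12. P3H2, a prolyl 3-hydroxylase that acts on collagen IV, fell (-1.30 ± 0.0907, edgeR adjusted p = 1.77e-07), and the endoplasmic reticulum chaperones CALR (0.75) and PDIA3 (0.37) and the prolyl 3-hydroxylase P3H1 (0.26) rose. Of 10 genes of procollagen export, 4 rose, 4 fell and 2 did not pass (median -0.10). MIA3, the cargo receptor that loads collagen, rose (0.52), while its relative MIA2 (-0.75), PREB, which starts the assembly of the export coat (-0.59), and the coat gene SEC13 (-0.57) fell. Of 5 tested propeptide proteases and enhancers, 4 rose and 1 did not pass (median 0.28), among them the amino-terminal protease ADAMTS3 (1.05) and the carboxy-terminal protease BMP1 (0.28). ADAMTS3 met the filter of 1 FPKM through the knockout libraries alone, so that it had to be higher there to be counted. Without wild-type replicate 2, P3H1 and BMP1 did not pass, and 2 genes of folding and glycosylation and 2 propeptide proteases and enhancers rose.

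Of 8 basement membrane partners of collagen IV, the 6 that were tested rose (median 0.59). The other 2, NID2 and SPARC, did not pass at a minimum of 0.1 FPKM (-0.23 and 1.003, edgeR adjusted p = 0.466 and 0.124). LAMA5, the laminin chain of mature basement membranes, was at 12.9 and 14.1 FPKM in wild type and 38.7 and 38.7 FPKM in the knockout (1.52 ± 0.0662, edgeR adjusted p = 2.61e-09). HSPG2, which encodes perlecan, was at 1.01, the linker NID1 at 0.61 and LAMC1 at 0.56. LAMB1 was at 0.16 (edgeR adjusted p = 0.0407), and at -0.01 (adjusted p = 0.946) when libraries were scaled to equal sums of count per gene length, where the other 5 still rose. LAMB1 also did not pass in DESeq2, with total-count scaling, or without wild-type replicate 1, wild-type replicate 2 or knockout replicate 2. Of 4 tested collagen receptor genes 3 rose (ITGA10 at 0.89, ITGB1 at 0.41, DDR1 at 0.33) and ITGA2, at 0.08, did not pass. At a minimum of 0.1 FPKM ITGA1 also rose (0.42) and ADGRG1 fell (-0.61). Of 11 tested genes of collagen breakdown 7 rose, 3 fell and 1 did not pass (median 0.39). The gelatinase MMP2 (1.58) and the inhibitor TIMP2 (1.02) rose. The collagenase MMP1 fell (-2.46), as did MMP14 (-0.40) and the inhibitor TIMP1 (-0.19, edgeR adjusted p = 0.0207). With the local median removed, MMP14 (-0.12) and TIMP1 (-0.06) did not pass (edgeR adjusted p = 0.166 and 0.454). MMP2 and MMP15 met the filter through the knockout libraries alone, and MMP1 through the wild-type libraries alone. At a minimum of 0.1 FPKM the other gelatinase, MMP9, fell (21, 22, 2 and 2 counts, edgeR adjusted p = 0.000841), as did MMP16 (-0.54, edgeR adjusted p = 0.00741). MMP9 met that minimum through the wild-type libraries alone, so that it had to be lower in the knockout to be counted. Of 3 tested fibril-associated genes FBN1 (0.73) and FBLN1 (0.57) rose and FN1, which encodes fibronectin, fell (-1.34).

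**Figure D5:**
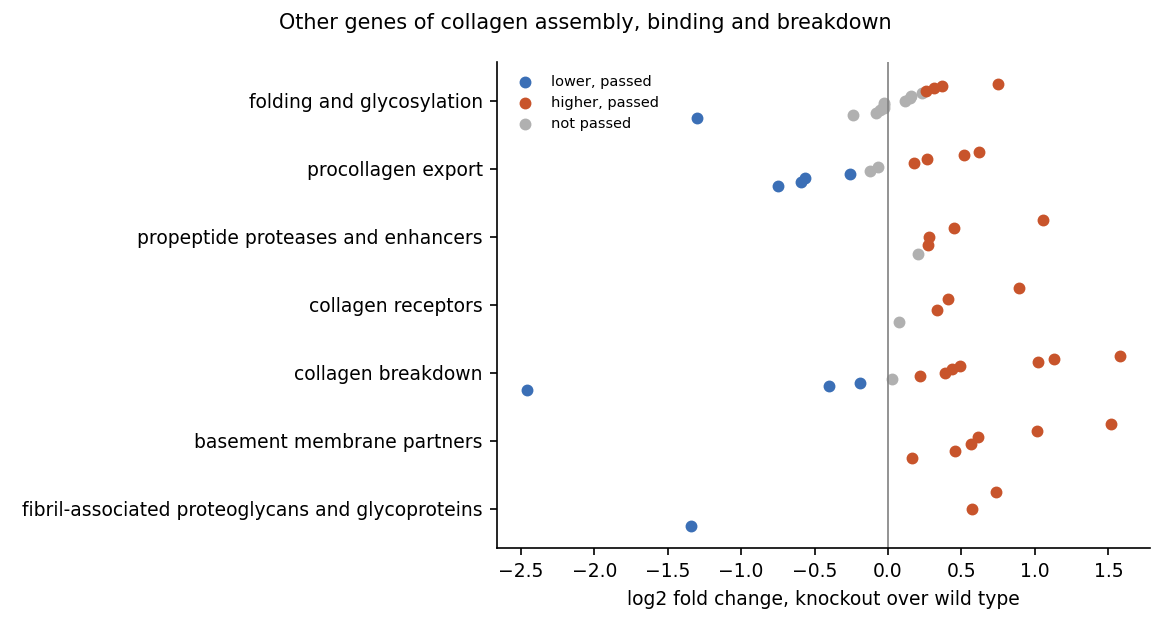
Log2 fold change, knockout over wild type, of each tested gene of the lists around collagen, 1 point per gene, in orange or blue where the gene was higher or lower at an edgeR adjusted p under 0.05 and in grey where it did not pass. All 6 basement membrane partners lie above 0, and MMP1 of the breakdown list lies lowest, at -2.46.

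When libraries were scaled to equal sums of count per gene length, the median of all tested genes moved by -0.17, 55.3% changed (14.7% higher, 40.6% lower) and 26.6% of called genes were higher, against 49.9%. The same 5 members rose on that scale and 9 fell, COL18A1 being the one added, and the median of the members was -0.29. Of the lists around collagen, 2 genes of folding and glycosylation rose and 6 fell (median -0.05), and 2 genes of procollagen export rose and 6 fell. Of the propeptide proteases and enhancers 2 rose and 0 fell, and of the receptors 2 rose and 0 fell. Of the genes of collagen breakdown 5 rose and 3 fell. P3H1, BMP1 and DDR1 did not pass on that scale. With the local median removed, where 47.4% of all tested genes changed (24.1% higher, 23.4% lower), 6 members rose, 4 fell and 6 did not pass. In the authors' deposited table, where 39.3% of the same genes had an adjusted p under 0.05, 5 of the 16 tested members were higher, 6 were lower and 5 did not pass, among them LOXL1 (adjusted p = 0.1001) and LOXL3 (adjusted p = 0.142).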

How the data were processed

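Gene expression was measured by RNA sequencing in 2 wild-type and 2 knockout libraries of H1299, prepared from total RNA with an Illumina TruSeq kit per the labels' protocols. The submitters' processing notes name HISAT2 2.0.5 and the build hg38. For the counter, its strand setting and the annotation, nothing is given in the sources used here. The authors deposited 1 table with a count and an FPKM per gene and library and a gene length, per the file headers. The headers do not say how the FPKM was made. The deposited mean normalized signal of each group was not used. The headers name no tool for the authors' deposited log2 fold change and p-value (raw and adjusted), which were only set beside the values computed here.

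Counts were tested with edgeR 4.0.16 (R 4.3.3), TMM factors from 0.978 to 1.02, a quasi-likelihood test without covariates (two-sided) and Benjamini-Hochberg adjustment over the 13079 genes that reached 1 FPKM in 2 or more libraries, at a threshold of 0.05. The library totals ranged from 25120500 to 28885443 counts, and the median standard error of a log2 fold change was 0.0886. Genes under 1 FPKM were described by a repeat of the fit with a minimum of 0.1 FPKM and by ratios of summed counts with 95% exact intervals. Alternatives were other filters, DESeq2 1.42.0, limma 3.58.1 on log2 FPKM, other scalings, removal of the local median, a replicate block and leaving out each library. The scaling to equal sums of count per gene length and the repeat of these alternatives at 0.1 FPKM were chosen after seeing the data. Exon lengths, overlaps and gene distances came from GENCODE 29. Every tested member could be named, and of each list around collagen up to 4 genes with the smallest p. LAMB1 and the other list and marker genes under 1 FPKM or outside this rule were named after their values were seen. The members and lists were chosen with earlier results of these data known.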

Additional observations from a re-analysis of the deposited data

How the results depend on the processing

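COL4A5, LOXL2, PLOD2, P4HA1 and SERPINH1 rose without each library in turn. The count of members that rose, 5, was 10 with a minimum of 0.1 FPKM and 15 with no minimum, where more members are tested. Those that fell gained COL12A1 and LOXL4 at 0.1 FPKM, and COL21A1 as well with no minimum. Of all 21208 genes tested at 0.1 FPKM, 16.9% were higher and 18.1% lower. With no minimum 30992 genes were tested, and 47.8% of called genes were higher. The count of members that fell, 8, was 5 to 8 when a library was left out, the lowest without either wild-type library, 4 with a minimum of 5 FPKM and 4 with the local median removed. Over all tested genes 3281 rose and 3300 fell. These were 2169 and 2177 with a minimum of 5 FPKM, where fewer genes are tested, and 1924 and 5304 with scaling to equal sums of count per gene length. Directions turned for COL18A1 (0.40 with the local median removed, and from -0.12 to 0.0194 when a library was left out, above 0 without wild-type replicate 2 or knockout replicate 2), PLOD1 (-0.049 with the scaling to equal sums), PLOD3 (0.0751 with the local median removed) and P4HA3 (from -0.27 to 0.66 when a library was left out, below 0 without knockout replicate 1). The cause was not tested. These fits take the spread of the lone library from the other group.

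With the replicate number as a block, 5 members rose and 8 fell, and 3515 of all tested genes rose and 3593 fell. Of the members, the block changed the call of COL11A2, which rose under it among genes with at least 0.1 FPKM (edgeR adjusted p = 0.0288, against 0.0518 without the block), and of the lists around collagen it raised the folding and glycosylation genes that rose from 4 to 6, adding COLGALT1 and CRTAP. Deviations of libraries with the same number had a correlation across genes of -0.0123, and with 2 pairs the numbers were not taken to pair the libraries. Depth limits 21 collagen chains, with under 20 counts over the 4 libraries, to statements on counts.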
